A study of Homo sapiens with 4 samples.

Results

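The long-chain acyl-CoA synthetases ACSL1, ACSL3, ACSL4, ACSL5 and ACSL6 were followed through a profile of H3K27ac, the acetylated histone H3 that marks active promoters and enhancers. Members were all lines of the authors' deposited table whose assigned gene was a member of this family of 5 genes. This gave 54 regions out of 91107 distinct ones, and 0 of the 54 were also assigned to another gene. The profile came from 4 chromatin immunoprecipitation libraries of A375, an established human melanoma cell line, made with an antibody to H3K27ac. Per the labels, 2 libraries came from cells given isopropanol, the vehicle, and 2 from cells given 1 mM octanoate, a medium-chain fatty acid, each for 48 hours. The labels do not say whether the 2 libraries of a treatment came from separate cultures, and the table analysed does not name the libraries behind its p-values, so the spread they measure is not known and may be technical.

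Acyl-CoA synthetases join a fatty acid to coenzyme A at the cost of ATP, the step that commits the fatty acid to oxidation, to storage as triglyceride or to membrane phospholipid. The ACSL enzymes act on long chains, whereas medium chains such as octanoate are activated mainly by the mitochondrial ACSM enzymes. The paralogs differ in where they sit and what they prefer. ACSL1 is the main form of fat, heart and liver and a classic target of PPAR nuclear receptors. ACSL3 sits on the endoplasmic reticulum and on growing lipid droplets. ACSL4 prefers arachidonate and supplies the polyunsaturated phospholipids that make cells prone to ferroptosis. ACSL5 is abundant in intestine and is found on mitochondria and the endoplasmic reticulum, and ACSL6 is the form of brain and other neural tissue.

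The authors' deposited table held 1 comparison and no value per library, so each error below is the standard error (SE) of the authors' model and the spread between replicates could not be computed. Its header does not name the numerator, and changes are therefore given as positive or negative. An adjusted p-value was present for 36436 regions, those with a mean level of at least 18.4 in the authors' normalized units, and these are called tested regions. The authors' deposited table gave them a median log2 fold change of 0.32, so a value near 0.32 is what a typical region showed, and a common factor between libraries and a common change in acetylation cannot be told apart. Regions at a distance of 0 from a start were present for the melanocyte lineage genes SOX10, PMEL and MITF and absent for TYR, MLANA and DCT, and AXL, NGFR, SOX9 and JUN of the dedifferentiated melanoma state had 1 each. Of the markers of other cell types, PTPRC, CD3E, PECAM1 and ALB had 0 regions at a start, while EPCAM had 1 with a mean level of 50.5 and KRT8 had 1 with 261 in the authors' deposited table.

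The 2 regions of the family that passed an adjusted p-value of 0.05 both lay inside ACSL5, and both were positive. They are 2 of 20 tested ACSL regions, where 1.67% of all tested regions passed in either direction and 1.65% in the positive one. The stronger region (chromosome 10, 112382182 to 112384927) lay 8.17 kb inside the gene and had a log2 fold change of 1.29 (SE 0.30), a ratio of 2.44, at a mean level of 50.3 per the authors' deposited table. The authors' deposited table gave it an adjusted p-value of 0.00651, and the unadjusted one, 1.70e-05, ranked 95 among all regions. The other (chromosome 10, 112387894 to 112391400), 13.9 kb inside the gene, had 1.22 (SE 0.30, adjusted p-value 0.0119) at a mean level of 47.1 in the authors' deposited table. These regions differed from each other by 0.06 (SE 0.43, 95% interval -0.77 to 0.90), with the SE taken from both deposited SEs as if the estimates were independent. After the median of tested regions was subtracted from the authors' deposited table and p-values were adjusted again, the values were 0.96 and 0.90 with adjusted p-values of 0.233 and 0.356, and neither region passed, where 0.124% of all tested regions did in place of 1.67%.

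ACSL5 as a whole carried 6 regions, and all 6 had positive fold changes in the authors' deposited table, 0.80 at the lowest, 1.19 at the median and 1.39 at the highest. The highest fold change of the family belonged to a region 6.28 kb inside the gene (chromosome 10, 112380293 to 112381581), with 1.39 (SE 0.46, unadjusted p-value 0.00249) per the authors' deposited table. Its mean level of 13.7 lay below the level at which the authors' deposited table gives an adjusted p-value, so it could not be called. When all distinct regions were adjusted together, its adjusted p-value from the authors' deposited table was 0.198, while the 2 called regions kept theirs under the threshold at 0.0163 and 0.0298. The region nearest the start of ACSL5, 0.942 kb inside (chromosome 10, 112374959 to 112377104), had 0.83 (SE 0.31, adjusted p-value 0.135) per the authors' deposited table at a mean level of 44.7. Upstream of the gene, 10.3 kb from its start, the region at chromosome 10, 112361712 to 112363719, had 0.80 (SE 0.37, adjusted p-value 0.225) per the authors' deposited table. The sixth region, 30.9 kb inside, was weak, with a mean level of 4.30 and a fold change of 1.15 (SE 0.81) in the authors' deposited table. ACSL5 fold changes thus lay lower at the start and upstream than at the 4 regions farther inside, but the called regions exceeded the start region by only 0.46 (95% interval -0.39 to 1.30) and 0.39 (-0.45 to 1.24), which both include 0.

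**Figure D1:**
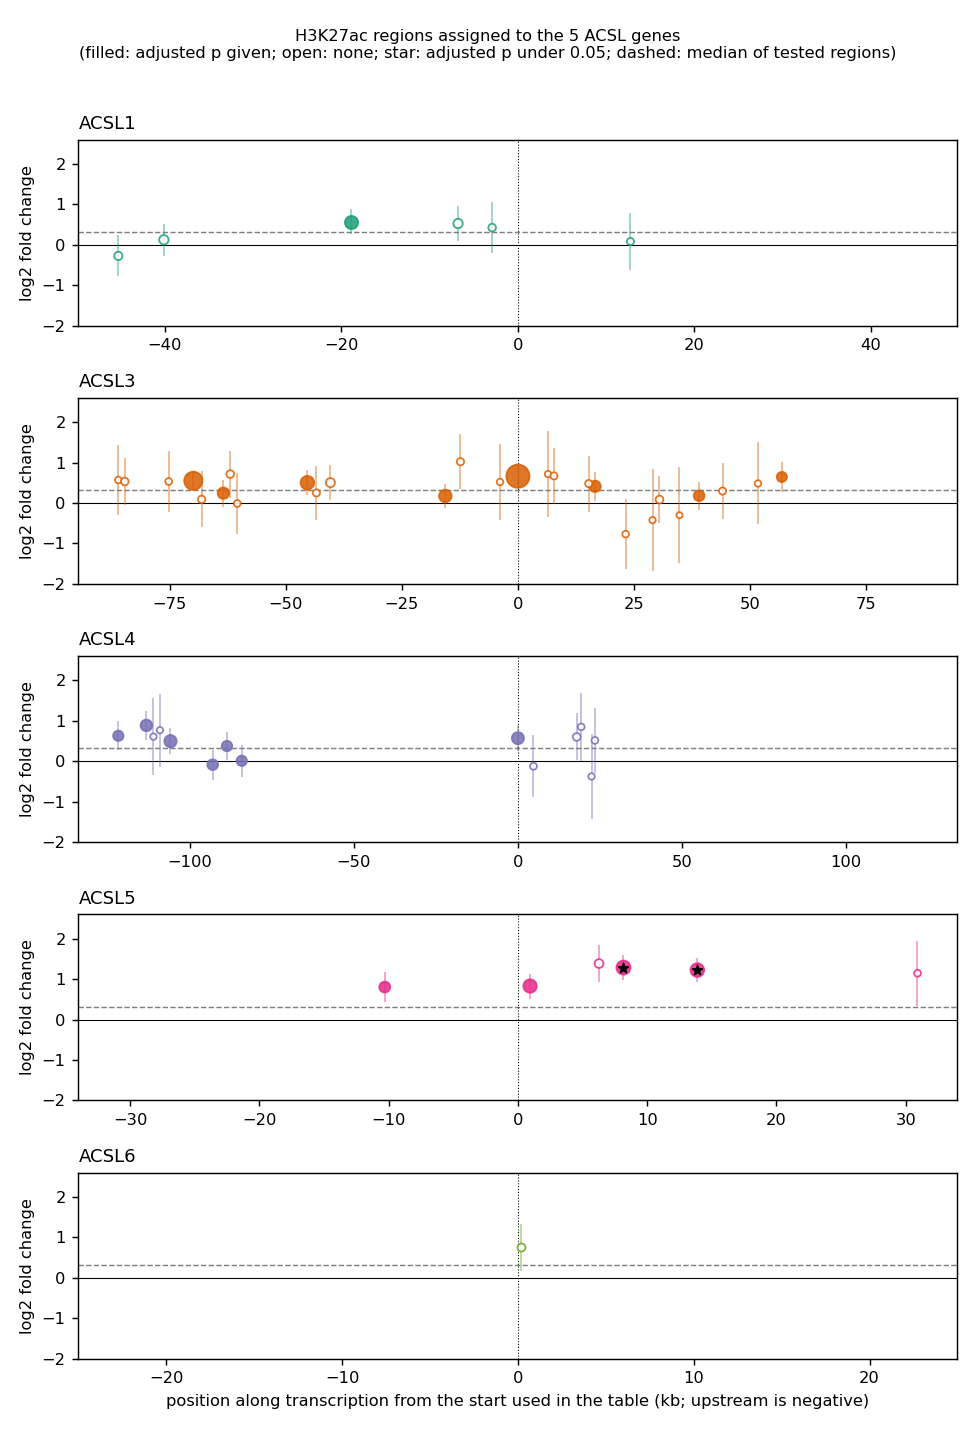
Log2 fold change of each ACSL region (vertical axis, bars are 1 SE from the authors' deposited table) against its position in kb along the direction of transcription from the start used in that table. Point area grows with mean level, and the 6 ACSL5 regions all lie between 0.80 and 1.39, above the dashed median of tested regions at 0.32.

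Regions of neighbouring genes around ACSL5 were taken as local context. Within 150 kb of the ends of the gene, 12 regions were assigned to GPAM, TECTB, VTI1A and ZDHHC6, and the authors' deposited table gave them fold changes between -0.88 and 0.72, median 0.18. The 2 tested ones both belonged to VTI1A, with 0.31 (SE 0.24) at its start and 0.17 (SE 0.26) at 84001 bases from it in the authors' deposited table. All 6 ACSL5 values lay above the highest of these 12. That highest value, 0.72 (SE 0.80), came from a weak region that was not tested, with a mean level of 4.09. The lowest, -0.88 (SE 0.75), was also at an untested region, with a mean level of 5.32. Of the 2 tested regions 0 were called, where 1.67% of all tested regions passed. An unadjusted p-value under 0.05 was seen at 0 of the 2, beside 18.4% of all tested regions.

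The paralogs were then compared at their starts. Only ACSL3 and ACSL4 had a region at a distance of 0 in the authors' deposited table. The distances of all ACSL1 regions in that table point back to a start at position 184805789 of chromosome 4, which is 20805 bases inside the outer end of the gene in RefSeq (GRCh38.p14, chromosome 4, 184755595 to 184826594, minus strand). For the other 4 genes the start used in the table lay 98 to 147 bases from the RefSeq end. The ACSL1 region with a table distance of -18854 bases (chromosome 4, 184824642 to 184826647) contained a RefSeq start of ACSL1, the ACSL5 region at -942 bases contained 2 of ACSL5 and the ACSL6 region at 171 bases (chromosome 5, 132011381 to 132011916) contained 3 of ACSL6. Each gene therefore had 1 region over at least 1 of its RefSeq starts, and these 5 are called start regions here. In ACSL1, ACSL4 and ACSL6 the same region also held the start of a noncoding RNA (LOC105377587, LOC105373311 and LOC124901062), and the mark does not tell the 2 starts apart.

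The upstream sequences under the start regions are shown because the ACSL5 windows differ from those of its paralogs in base composition. Both ACSL5 windows precede starts inside the gene, at 112375268 and 112376205, whereas the outer RefSeq end of ACSL5 is at 112374116. No ACSL5 region covered that outer end, and the sequence before it was not examined. The ACSL3 and ACSL4 windows lie directly before the outer end, and those of ACSL1 and ACSL6 also precede starts inside the gene. Each line gives the 250 bases before a RefSeq start that lies inside the region, 5′ to 3′ on the strand of the gene, from the RefSeq promoter table of GRCh38.p14. Capitals mark matches to the GC box GGGCGG, the CCAAT box, the TATA box TATAAA, the E-box CACGTG, the cAMP response core TGACGT and the DR1 element bound by PPAR, AGGTCA repeated with 1 base between, on either strand, with overlapping matches merged. The windows are chr4:184825969-184826218 (minus strand) for ACSL1, chr2:222860786-222861035 (plus strand) for ACSL3, chrX:109733258-109733507 (minus strand) for ACSL4 and chr10:112375018-112375267 (plus strand) for ACSL5.
ACSL1: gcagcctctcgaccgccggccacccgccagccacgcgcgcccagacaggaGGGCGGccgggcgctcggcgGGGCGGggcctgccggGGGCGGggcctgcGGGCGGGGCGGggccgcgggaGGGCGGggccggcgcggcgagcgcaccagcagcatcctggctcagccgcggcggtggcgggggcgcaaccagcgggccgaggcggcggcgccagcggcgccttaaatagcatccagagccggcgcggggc
ACSL3: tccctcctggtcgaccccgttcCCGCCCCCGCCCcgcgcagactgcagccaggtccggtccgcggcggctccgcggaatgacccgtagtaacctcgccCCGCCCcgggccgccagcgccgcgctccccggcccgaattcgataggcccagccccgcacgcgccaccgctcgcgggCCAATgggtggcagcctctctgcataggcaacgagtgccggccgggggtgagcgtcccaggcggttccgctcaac
ACSL4: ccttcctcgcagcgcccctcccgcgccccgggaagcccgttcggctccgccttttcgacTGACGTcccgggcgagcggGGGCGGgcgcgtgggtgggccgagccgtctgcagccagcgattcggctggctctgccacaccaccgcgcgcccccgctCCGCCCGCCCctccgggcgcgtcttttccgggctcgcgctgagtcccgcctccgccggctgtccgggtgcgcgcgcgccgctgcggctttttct
ACSL5: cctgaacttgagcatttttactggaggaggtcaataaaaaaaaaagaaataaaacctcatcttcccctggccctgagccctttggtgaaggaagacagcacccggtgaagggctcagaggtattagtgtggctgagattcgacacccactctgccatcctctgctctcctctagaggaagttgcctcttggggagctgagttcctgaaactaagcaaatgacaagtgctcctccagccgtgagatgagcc

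The ACSL1, ACSL3 and ACSL4 windows were rich in G and C, at 83.6%, 75.2% and 77.2%, and held 41, 35 and 42 CG dinucleotides. The ACSL5 window had 50% and 3 CG dinucleotides, and the window before the other ACSL5 start in the same region had 48.8% and 2. All 35116 windows of the promoter table had a median of 58% and 11 CG dinucleotides. The ACSL6 window at chr5:132011659-132011908 resembled the first 3 genes, with 76.4% and 31. GC box letters occurred 6 times in ACSL1, 3 times in ACSL3 and 3 times in ACSL4 and were not found in either ACSL5 window, and 42.6% of all windows hold them. ACSL3 had 1 CCAAT box, which 32.01% of all windows hold, and ACSL4 had 1 cAMP response core, which 7.10% hold. The TATA box and the E-box letters, held by 10.7% and 6.34% of windows, were not in the 4 printed windows. The DR1 element occurs in 0.0171% of windows and was not in these either. These matches describe letters only.

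Fold changes at the 5 start regions were all positive, and they were close together. Of all regions at distance 0, as for ACSL3 and ACSL4, 97.7% were positive. The share was 88.6% at table distances of 1 to 1000 bases, as for ACSL5 and ACSL6. It was 71.7% over 10 kb to 100 kb, as for ACSL1. ACSL5 had 0.83 (SE 0.31), ACSL6 0.76 (SE 0.59), ACSL3 0.66 (SE 0.23), ACSL4 0.57 (SE 0.32) and ACSL1 0.56 (SE 0.31) in the authors' deposited table. The 2 regions at distance 0, ACSL3 (chromosome 2, 222858526 to 222866283) and ACSL4 (chromosome X, 109731817 to 109733824), had adjusted p-values of 0.0998 and 0.304 in the authors' deposited table, so 0 of 2 passed where 0.860% of all tested regions at distance 0 did. ACSL3 alone of the 2 had an unadjusted p-value under 0.05, at 0.00365 in the authors' deposited table. The difference between them, ACSL3 minus ACSL4, was 0.09 (SE 0.39, 95% interval -0.67 to 0.85). Among the 10 pairs of start regions the differences ran from 0.01 to 0.27 in size, and the 95% interval included 0 in 10 of 10. No neighbours in this order differed beyond their errors, and the intervals, none narrower than that of ACSL1 against ACSL3 (-0.85 to 0.65), leave room for differences in either direction. The median of tested regions at distance 0 was 0.35 in the authors' deposited table.

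**Figure D2:**
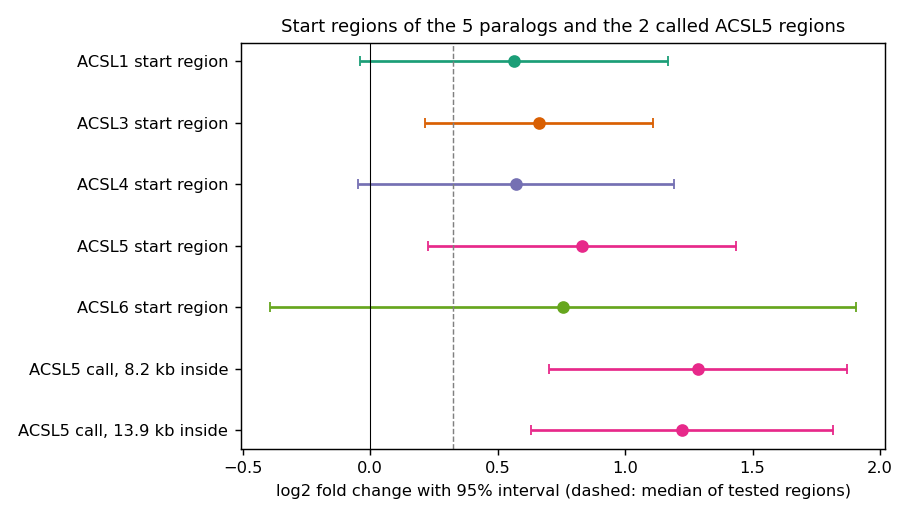
Log2 fold change (horizontal axis) with its 95% interval from the deposited SE for the start region of each paralog and for the 2 called ACSL5 regions. The start regions lie between 0.56 and 0.83 with overlapping intervals, and the called regions lie at 1.29 and 1.22.

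Levels of the mark differed more than fold changes did, mainly through the width of the regions. The ACSL3 start region was 7757 bases wide with a mean level of 156 in the authors' deposited table, against 2007 bases and 35.2 for ACSL4. Per kb of region the mean level in the authors' deposited table was 20.1 for ACSL3 and 17.5 for ACSL4, below the median of 25.3 per kb for all regions at distance 0. The other start regions had 21.6 per kb (ACSL1), 20.9 per kb (ACSL5) and 18.0 per kb (ACSL6) in the authors' deposited table. The ACSL6 region, the only region of that gene, was 535 bases wide with a mean level of 9.62 in the authors' deposited table, too low to have an adjusted p-value. By mean level, the ACSL3 region stood at percentile 82.4 and the ACSL4 region at percentile 15.6 of the regions at distance 0 in the authors' deposited table. The ACSL5 region called at 8.17 kb had 18.3 per kb, close to the start regions, and the one at 13.9 kb had 13.4 per kb in the authors' deposited table.

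Away from starts the family had 52 regions, 18 of them tested, and the 2 ACSL5 calls were its calls, where 1.97% of all tested regions away from starts passed. These 52 are away from the start used in the table, and 3 of them, 2 of which were tested, are the start regions of ACSL1, ACSL5 and ACSL6 described above. The median fold change of the 52 regions on the log2 scale was 0.51 in the authors' deposited table, against 0.25 for all regions away from starts. Of the 52, 44, or 84.6%, were positive, where 70.5% of all regions away from starts were. These regions fell into 3 layouts. ACSL3 had regions spread on both sides of its start, and ACSL4 had an upstream group far from the gene. ACSL5 and ACSL1 had most of their regions inside the gene, 5 of 6 and 4 of 6.

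ACSL3 carried 27 regions, 14 upstream of the gene as far as 86.1 kb and 13 overlapping the gene. Its 8 tested regions had positive fold changes from 0.17 to 0.66 in the authors' deposited table, where 87.3% of all tested regions were positive. Of the 8, 0 passed, where 1.67% of all tested regions did, so 0 of 8 says little. An unadjusted p-value under 0.05 was seen at 2 of the 8, beside 18.4% of all tested regions. The strongest distal region of the family (chromosome 2, 222786391 to 222790995) lay 69.9 kb upstream of ACSL3. It was 4604 bases wide and had a mean level of 91.8, or 19.9 per kb, the same order as the start region, with a fold change of 0.55 (SE 0.23, adjusted p-value 0.188) per the authors' deposited table. A region 15.6 kb upstream (chromosome 2, 222842416 to 222845297) had the lowest tested ACSL3 value, 0.17 (SE 0.30, adjusted p-value 0.728) per the authors' deposited table. A region 56.9 kb inside the gene (chromosome 2, 222917810 to 222919920) had the highest tested value away from the start, 0.64 (SE 0.38, adjusted p-value 0.329) per the authors' deposited table. That region holds the RefSeq start of ACSL3-AS1, a noncoding RNA, and was the only region of the family that covered a start of another gene and none of its own. The 4 negative ACSL3 values, from -0.77 to -0.01, in the authors' deposited table were all at weak regions that were not tested.

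ACSL4 carried 14 regions, of which 8 lay 84.1 to 121.7 kb upstream of its start, with no ACSL4 region in between. No start of the RefSeq promoter table lay within these 8, and the nearest gene assigned by the authors was ACSL4 for all of them. Of the 8, 6 were tested and 0 passed, where 1.97% of all tested regions away from starts did, so 0 of 6 says little. The highest (chromosome X, 109846582 to 109849214), 113.2 kb upstream, had 0.89 (SE 0.35) (adjusted p-value 0.167, unadjusted 0.0122) at a mean level of 31.9 in the authors' deposited table. The lowest (chromosome X, 109826374 to 109829054), 93.0 kb upstream, had -0.08 (SE 0.37, adjusted p-value 0.891) per the authors' deposited table, the only negative tested value of the family. The strongest upstream region (chromosome X, 109839244 to 109841969), at 105.8 kb, had a mean level of 37.0 against 35.2 for the start region, and a fold change of 0.50 (SE 0.33, adjusted p-value 0.373) per the authors' deposited table. Per kb this region had 13.6 and the start region 17.5 in the authors' deposited table. In that table the 3 tested upstream regions nearest to the gene had -0.08 to 0.38 and the 3 farthest had 0.50 to 0.89, an order seen after the values were known and not tested.

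ACSL1 carried 6 regions with 1 tested, its start region, for which the authors' deposited table gave an adjusted p-value of 0.299. The other 5 had mean levels from 5.59 to 17.2 and fold changes from -0.28 to 0.52 in the authors' deposited table. The 2 regions upstream of the gene, at table distances of -40100 and -45261 bases, overlapped MIR3945HG, the host transcript of a microRNA, and had 0.12 (SE 0.40) and -0.28 (SE 0.50) in the authors' deposited table. ACSL6 had no distal region. The 6 regions within 150 kb of ACSL6 that were assigned to another gene all belonged to CSF2, the gene of the cytokine GM-CSF. Of these, 4 were tested and 2 were called, where 1.67% of all tested regions passed. The 2 calls had 1.04 (SE 0.27, adjusted p-value 0.0179) at 19387 bases from the CSF2 start and 0.93 (SE 0.27, adjusted p-value 0.0403) over the start in the authors' deposited table.

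**Figure D3:**
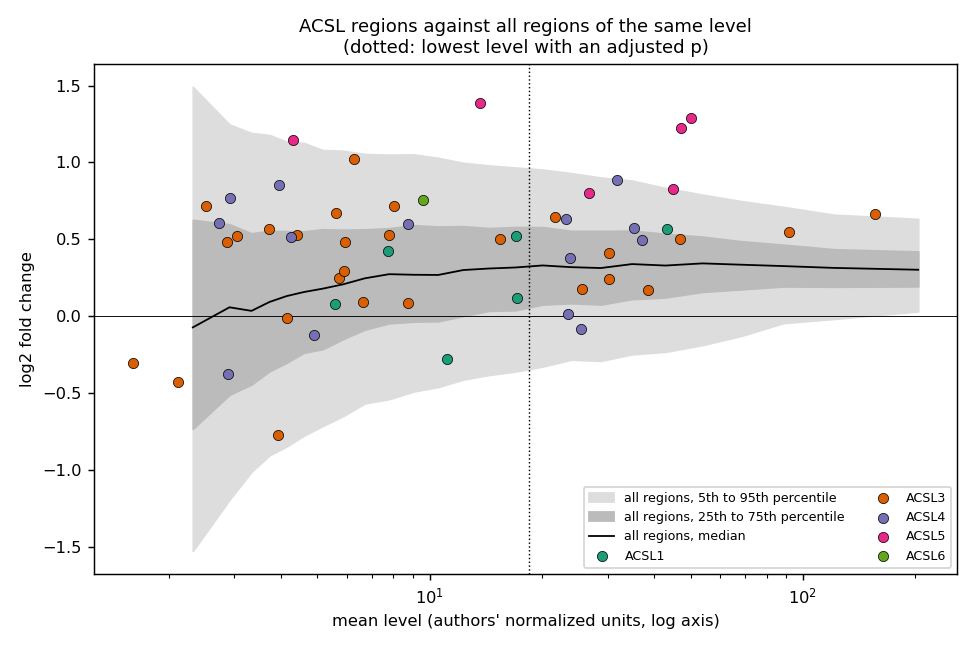
Log2 fold change (vertical axis) against mean level on a log axis (horizontal) for the 54 ACSL regions, over bands that hold the middle 50% and the middle 90% of all regions in 25 bins of level. Of the 6 ACSL5 regions 4 lie above the 95th percentile of their bin, and the other 4 genes together have 2 such regions of 48. Those 2 and the ACSL5 region 30.9 kb inside lie close to that cutoff.

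Seen against the level of each region, 38 of the 54 ACSL regions had a fold change above the median of all regions in the nearest of 25 bins of level. Above the 95th percentile of the bin were 6 regions, of which 4 belonged to ACSL5, 1 to ACSL3 and 1 to ACSL4, and 0 regions lay below the 5th percentile. Some stood close to that cutoff. The ACSL5 region 30.9 kb inside had 1.146 (SE 0.81) against 1.135. The ACSL3 start region had 0.662 against 0.660, and the ACSL4 region 113.2 kb upstream had 0.888 against 0.882. The ACSL5 start region fell just short, with 0.830 against 0.834. Over the whole family 46 of 54 regions, or 85.2%, were positive in the authors' deposited table, where 73.7% of all regions were. Among tested regions 19 of 20 were positive, where 87.3% of all tested regions were. At an unadjusted p-value under 0.05 stood 7 of the 20, all positive, where 17.9% of all tested regions stood there with a positive sign. Of these 7, 4 were the tested ACSL5 regions, 2 belonged to ACSL3 and 1 to ACSL4. The median of the 20 was 0.56 in the authors' deposited table, and regions of 1 gene share a locus and are not independent of each other.

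The enzymes around the ACSL step were covered by a list of 61 genes, of which 55 had a region. They had 116 tested regions, of which 3, or 2.59%, passed, all positive, beside 1.67% of all tested regions. At an unadjusted p-value under 0.05 stood 27, or 23.3%, all positive, beside 18.4% of all tested regions. The median of the 116 was 0.37 in the authors' deposited table, against 0.56 for the tested ACSL regions and 0.32 for all tested regions.

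Other acyl-CoA synthetases, 18 genes with 34 tested regions, had 1 positive and 0 negative calls (2.94%, beside 1.67% of all tested regions). In this group 6 regions, or 17.6%, had an unadjusted p-value under 0.05, beside 18.4% of all tested regions, and the tested regions had a median of 0.35 in the authors' deposited table. The call was a region 14011 bases from the start of ACSS2, the synthetase that makes acetyl-CoA from acetate, with 1.05 (SE 0.31, adjusted p-value 0.0442) per the authors' deposited table. A broad region 33735 bases from the start of SLC27A1, which encodes the fatty acid transport protein FATP1, had 0.69 (SE 0.22, adjusted p-value 0.078) per the authors' deposited table. The SLC27A1 start itself had 0.19 (SE 0.25, adjusted p-value 0.632) per the authors' deposited table.

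Acyl-CoA thioesterases, which undo the ACSL reaction, were 10 genes with 25 tested regions and 1 positive and 0 negative calls (4%, beside 1.67% of all tested regions). The call was a region 87898 bases from the start of ACOT7, a thioesterase best known from brain, with 0.77 (SE 0.22, adjusted p-value 0.0412) per the authors' deposited table. A region near THEM5 had 0.95 (SE 0.34, adjusted p-value 0.118), and the THEM4 start had 0.28 (SE 0.23, adjusted p-value 0.469) per the authors' deposited table. In this group 7 regions, or 28%, had an unadjusted p-value under 0.05, beside 18.4% of all tested regions, and the median of the tested regions was 0.37 in the authors' deposited table.

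Genes of acyl-CoA binding and mitochondrial entry, 10 genes with 19 tested regions, had 0 calls by the authors' DESeq2 comparison, beside 1.67% of all tested regions. Of the 19, 4 (21.1%, beside 18.4% of all tested regions) were under 0.05 unadjusted, and their median was 0.41 over all 19 in the authors' deposited table. The smallest p-value there belonged to the start of SLC25A20, the carnitine-acylcarnitine carrier, with 0.85 (SE 0.27, adjusted p-value 0.0746) per the authors' deposited table. The starts of ACBD3 and ACBD4, genes of the acyl-CoA binding domain family, had 0.53 (SE 0.25, adjusted p-value 0.238) and 0.36 (SE 0.22, adjusted p-value 0.354) per the authors' deposited table.

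Genes that use acyl-CoA for glycerolipids and phospholipid remodelling, 17 genes with 38 tested regions, had 1 positive and 0 negative calls (2.63%, beside 1.67% of all tested regions). The call was a region 4895 bases from the start of AGPAT2, an acyltransferase that makes phosphatidic acid, with 1.11 (SE 0.32, adjusted p-value 0.0397) per the authors' deposited table. A region 65751 bases from the start of MBOAT2, a lysophospholipid acyltransferase, had 0.86 (SE 0.26, adjusted p-value 0.0542), and the start of GPAT3, a glycerol-3-phosphate acyltransferase, had 0.61 (SE 0.22, adjusted p-value 0.11) per the authors' deposited table. In this group 10 regions, or 26.3%, had an unadjusted p-value under 0.05, beside 18.4% of all tested regions, and the median of the tested regions was 0.39 in the authors' deposited table. After centring on the median of tested regions, or adjustment over all distinct regions, 0 of the 3 calls of the list remained. Over all regions 0.124% of the tested ones passed after centring and 0.274% of the distinct ones after the wider adjustment, and the 2 ACSL5 calls passed under the latter only.

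**Figure D4:**
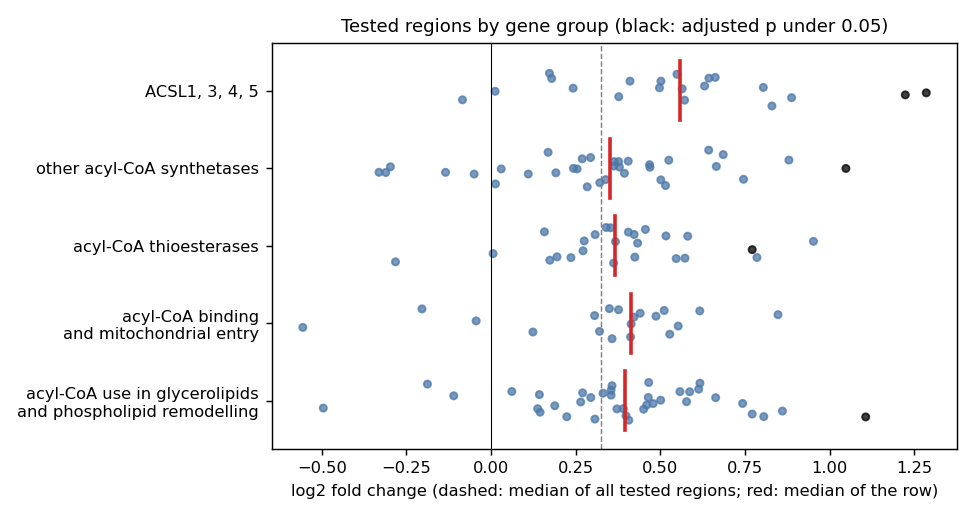
Log2 fold change (horizontal axis) of each tested region, 1 point per region, for the ACSL genes with tested regions and for the 4 groups of acyl-CoA genes. Red bars are row medians, 0.56 for the ACSL genes and 0.35 to 0.41 for the other groups, and black points are the 2 ACSL5 calls and the calls at ACSS2, ACOT7 and AGPAT2.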

How the data were processed

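H3K27ac chromatin immunoprecipitation libraries of A375 cells, 2 vehicle and 2 octanoate per the labels, were available as 1 table of the authors' comparison, with DESeq2 column names per the file headers. The submitters' processing notes name Trim Galore, cutadapt, FastQC, Bowtie2, Picard, MACS2, featureCounts, DESeq2 and bedtools 2.29.1 and the build hg38, without role or order. The mean level is a signal (mean normalized count) made by the authors, per the file headers, with scaling and libraries not named. Its decimals were multiples of 1e-06 divided by 8 for 100% of lines and divided by 4 for 50.1%, so it may be a mean over more columns than the 4 labelled libraries. The log2 fold change and its SE are the authors' values on the log2 scale, per the file headers. The score is the authors' test statistic, per the file headers, and was not used. The p-value and the adjusted p-value are the authors' deposited ones, and Benjamini-Hochberg adjustment of tested regions gave the latter back to within 1.58e-14. An adjusted value of 1 was read as not computed. Coordinates and distances are as deposited by the authors. There were 0 columns of per-sample values to leave out, and the depth of the libraries is unknown.

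Lines were merged to distinct regions, taking the line with the smallest distance. RefSeq tables of GRCh38.p14 gave gene ends, starts and promoter sequences, and all 5 genes matched by symbol. Differences between regions carry an SE from both deposited SEs and a 95% normal interval, which treats estimates as independent. Named regions were all at distance 0 and, for each gene, the distal region of highest mean level, the tested ones of largest and smallest fold change, and those with a p-value under 0.05 at a mean level of at least 10. Start regions by RefSeq starts, regions of neighbouring genes, the level bins and 3 weak regions fall outside that rule and were chosen after values were seen. Of the gene list, calls, the 2 smallest p-values and the strongest start of each group are named. Members and lists were chosen with earlier results of these data known. Alternatives were a stricter threshold (0.01), a minimum size of 1 for the log2 fold change, adjustment over all distinct regions, centring, filters on level and distance and leaving out each gene. Python 3.11.15, pandas 2.3.3 and scipy 1.17.1 were used. Exons, introns and the sequence of distal regions were not analysed here.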

Additional observations from a re-analysis of the deposited data

How the results depend on the processing

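The 2 ACSL calls of the authors' deposited table stayed at 2 when a size of at least 1 on the log2 scale was required, with adjustment over all distinct regions and with all lines counted. They became 1 at a threshold of 0.01 and 0 after centring on the median of tested regions, where 0.124% of all tested regions passed. The 3 calls of the other acyl-CoA genes became 0 at a threshold of 0.01, 0 after centring and 0 with adjustment over all distinct regions. The share of all tested regions that passed at 0.01 was not computed, so the counts at that threshold cannot be set against it. The median fold change of all 54 ACSL regions ran from 0.50 to 0.57 with each gene left out in turn and became 0.19 after centring. At distance 0 the median of 0.62 over 2 regions became 0.71 for the 4 regions within 1 kb and 0.26 after centring, and away from starts 0.51 became 0.20 after centring. Among the regions examined singly the direction reversed after centring for ACSL3 at 15.6 kb upstream, to -0.15, which was no call in either setting.

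No paired analysis was possible because values of single libraries are not part of the comparison analysed. A replicate block, each library left out, other size factors and a filter on counts were likewise not run. Errors come from the authors' model, whose libraries are not named, and depth cannot be judged. The cutoff on mean level near 18.4 left 34 of the 54 ACSL regions, among them the only ACSL6 region, with no adjusted p-value.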
